A study of Capra hircus with 13 samples.

Results

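The levels of 6 goat genes of the actin cytoskeleton were followed through early development and after knockdown of *YTHDF2*: the thymosins *TMSB4X* and *TMSB10*, the cytoplasmic actins *ACTB* and *ACTG1*, the profilin *PFN1* and the cofilin *CFL1*. They are 6 of the 18138 gene names listed for all 13 libraries. *TMSB4X* was chosen by its level in these libraries, so its levels, ranks and shares are a description and no test of it is given, whereas the other 5 genes were taken for their role beside it. The libraries are polyA RNA made into cDNA by Smart-seq2 from goat MII oocytes, which are mature oocytes arrested in meiosis before fertilization (3 libraries), untreated 4-cell stage embryos (3), untreated 8-cell stage embryos (3), and 8-cell stage embryos that had received negative control (NC) siRNA (2) or *YTHDF2* siRNA (2). Injected embryos were fertilized in vitro and received 20 µM siRNA in the cytoplasm 8 h later, the *YTHDF2* siRNA being a mixture of 2 duplexes, and 15 embryos were pooled for each injected library. The untreated libraries come from 2 previous studies, and which library came from which is not stated, so a difference between studies and a difference between stages cannot be told apart. Nothing says whether replicates came from separate animals or cultures, so p-values measure the spread between these libraries, which may be technical.

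Actin switches between free monomers and filaments, and the 6 gene products act on that switch. Beta-thymosins hold actin monomers in reserve, profilin loads monomers onto growing filament ends, and cofilin cuts and disassembles old filaments. In oocytes and cleaving embryos, filaments form the cell cortex, help to place the spindle and build the contractile ring that divides the cell. YTHDF2 is a cytoplasmic reader of N6-methyladenosine in mRNA that is known to speed the decay of its targets.

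The knockdown rests on 2 duplexes, whose antisense strands are given because they define the treatment that all injected comparisons test, with bases 2 to 8 (the seed) in capitals.
siRNA 1: uUGCUAGCaauaucagcccaa
siRNA 2: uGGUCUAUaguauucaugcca
With these, *YTHDF2* stood at 111.5 and 158.6 FPKM in the NC siRNA libraries and at 8.07 and 4.47 FPKM in the *YTHDF2* siRNA libraries, and it fell by 4.25 on the log2 scale (SE 0.432, adjusted p = 0.000367, limma). Untreated 8-cell stage embryos, normalized apart, had 10.8, 16.7 and 12.5 FPKM of *YTHDF2*, below both NC siRNA libraries. The cause of that difference was not tested. FPKM is a fragment number scaled by gene length and by the fragments of the library. It is a share of a library, not an amount per embryo, so fewer cells, less RNA per cell and more RNA from other genes cannot be told apart here.

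The untreated libraries held 26853876 to 42495116 fragments, and the fewest fragments behind any member value were 143 (*ACTB* in 8-cell replicate 3), while the depth of the injected libraries is unknown. Names shared by the untreated libraries took 64.8 to 66.3% of the MII fragments and 94.7 to 97.0% of those of the embryos, so a larger part of each MII total lay outside these names. The MII libraries also list fewer gene names, 18957 against 22107 for the 4- and 8-cell libraries, for a reason that is not known. All comparisons against MII cross this difference. Changes were therefore also computed after 3 rescalings of the untreated libraries, by median ratios, to a common sum over the shared names, and with the fragments on the shared names as total. 8-cell replicate 1 stood apart: its log2 values correlated with those of replicates 2 and 3 at Pearson r = 0.921 and 0.944, against 0.979 between those 2, and 19.3% of 9090 genes were more than 2-fold above both other 8-cell libraries in it. The oocyte markers *ZP2*, *ZP4* and *BMP15* had the highest means of their list, and 11 of 12 listed oocyte markers were measured. The 11 summed to 1621 to 2704 FPKM in MII oocytes, 2272 to 3592 in 4-cell and 2557 to 3095 in untreated 8-cell stage embryos. In the injected libraries they summed to 500.3 to 787.1 FPKM with NC siRNA and 1041 to 1952 FPKM with *YTHDF2* siRNA. Of the cumulus and granulosa cell markers *FSHR*, *AMH* and *INHA* were below 2 FPKM in all libraries, whereas *STAR* stood at 17.6 to 95.6, *HAS2* at 8.15 to 29.4, *VCAN* at 8.44 to 22.4 and *TNFAIP6* at 0.782 to 19.8 FPKM. The 12 measured summed to 58.2 to 77.5 FPKM in MII oocytes, 69.7 to 76.2 in 4-cell and 99.3 to 151 in untreated 8-cell stage embryos, 45.7 to 54.7 with NC siRNA and 84.7 to 94.6 with *YTHDF2* siRNA. The 6 stroma markers summed to 35.3 to 118 FPKM, the 5 measured sperm markers to at most 21.9 FPKM and the 3 measured blood cell markers to at most 45.1 FPKM in any library.

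*TMSB4X* encodes thymosin beta 4, the main monomer-sequestering protein of many cell types. In MII oocytes it stood at 6126, 4348 and 7246 FPKM, and at the 4-cell stage at 34380.3, 13829 and 21106 FPKM. In 8-cell stage embryos it stood at 8821, 16663 and 11359 FPKM. The MII range lay below both embryo ranges, and the 4- and 8-cell ranges overlapped. The 4-cell mean was 3.91-fold and the 8-cell mean 2.08-fold the MII mean, a difference in mean log2(FPKM + 1) of 1.90 and 1.04. On the same scale the difference of 8-cell from 4-cell stage embryos was -0.86. Under all alternatives run the difference stayed above 0, at 1.35 to 2.22 for 4-cell and 0.50 to 1.25 for 8-cell stage embryos against MII.

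With NC siRNA *TMSB4X* stood at 22973 and 33299.8 FPKM, and with *YTHDF2* siRNA at 55835 and 75571 FPKM. Both knockdown libraries lay above both controls, and the means differed 2.34-fold, or by 1.23 on the log2 scale (0.96 to 1.5 over the alternatives). *TMSB4X* was chosen by its level in libraries that include these, so the value carries no test. The summed oocyte markers also differed, at 500.3 to 787.1 FPKM with NC siRNA and 1041 to 1952 FPKM with *YTHDF2* siRNA, with 1 of 10 tested (*MOS*) rising and none falling (2.06% of all genes higher and 5.92% lower), 9 of 10 at an unadjusted p under 0.05 (29.5% of all 11004 genes) and a median log2 difference of 1.17 beside 0.01 for all genes (limma). The cumulus and granulosa cell markers given above summed higher too, with 0 of 5 tested passing and 2 at an unadjusted p under 0.05 beside the same shares of all genes, and the part of either list in the result was not tested.

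*TMSB4X* was the gene with the highest FPKM in 9 of 10 embryo libraries. The exception was 8-cell replicate 3, where *PAIP1*, which encodes a partner of poly(A)-binding protein in translation, reached 12410.4 FPKM. In MII oocytes *PTTG1*, which encodes securin, led with 9891 to 14652 FPKM, and *TMSB4X* ranked 3, 4 and 3. In untreated embryos *TMSB4X* was 0.915- to 1.24-fold the highest other gene, against 2.19- and 1.91-fold with NC siRNA and 4.01- and 4.69-fold with *YTHDF2* siRNA.

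**Figure D1:**
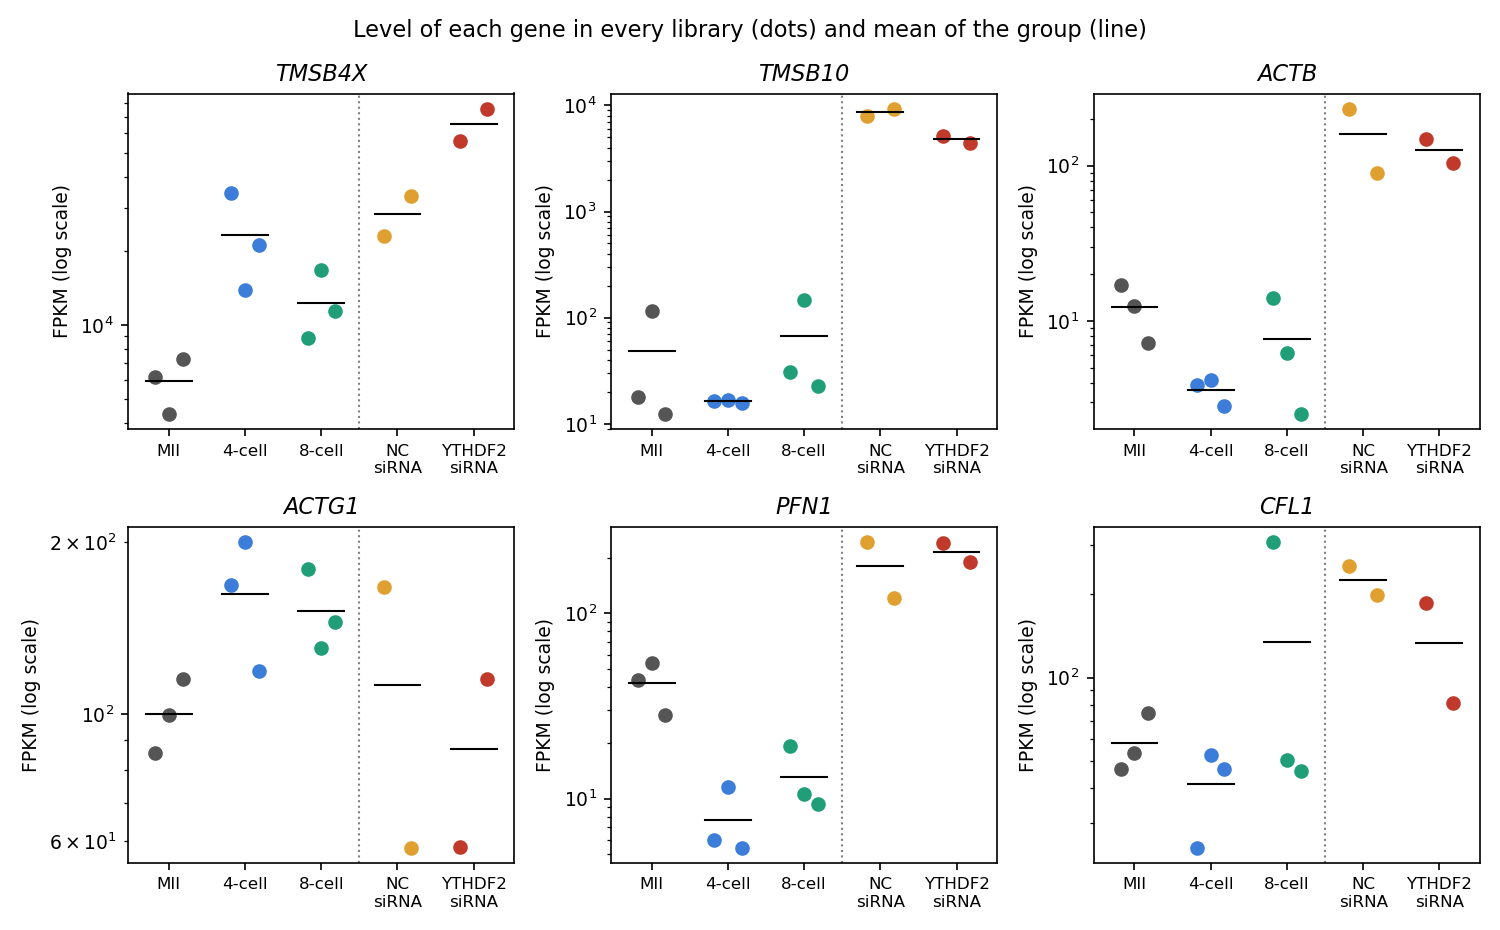
FPKM of the 6 genes (log axes, a separate range for each gene) in every library, with each dot 1 library, the line the group mean, and the dotted line the border between tables normalized apart. *TMSB4X* is at most 7246 FPKM in MII and at least 8821 FPKM in every embryo library, while *TMSB10* stays at or below 148 FPKM in untreated libraries and lies at 4418 FPKM or more in all 4 injected ones.

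The 6 genes together took 2.29, 1.62 and 2.62% of the summed FPKM of the MII libraries, a mean of 2.17% ± 0.508 (SD, n = 3). At the 4-cell stage the share was 7.82, 3.53 and 4.93% (5.43% ± 2.19, SD, n = 3), and at the 8-cell stage 2.43, 4.09 and 2.97% (3.16% ± 0.850, SD, n = 3). It was 5.54 and 6.90% with NC siRNA and 10.9 and 13.4% with *YTHDF2* siRNA. The 4-cell libraries lay above all MII libraries, and the 8-cell share of summed FPKM overlapped both. FPKM divides by length, and the deposited values correspond to a *TMSB4X* length of 613 bases, so the share of fragments was smaller, at 0.400% ± 0.0871 in MII, 1.46% ± 0.635 in 4-cell and 0.807% ± 0.230 in 8-cell stage embryos (SD, n = 3). By fragments the 8-cell libraries (0.623 to 1.06%) lay above the MII libraries (0.309 to 0.482%) and overlapped the 4-cell libraries (0.897 to 2.15%).

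Most of this share was *TMSB4X*, which made up 92.8 to 99.4% of the 6 genes in untreated libraries. It made up 72.1 and 77.3% with NC siRNA and 90.6 and 93.9% with *YTHDF2* siRNA. Without it, the other 5 genes held 0.0439 to 0.143% of summed FPKM in untreated libraries, 1.55 and 1.56% with NC siRNA, and 1.02 and 0.819% with *YTHDF2* siRNA, most of it *TMSB10* in the injected libraries.

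**Figure D2:**
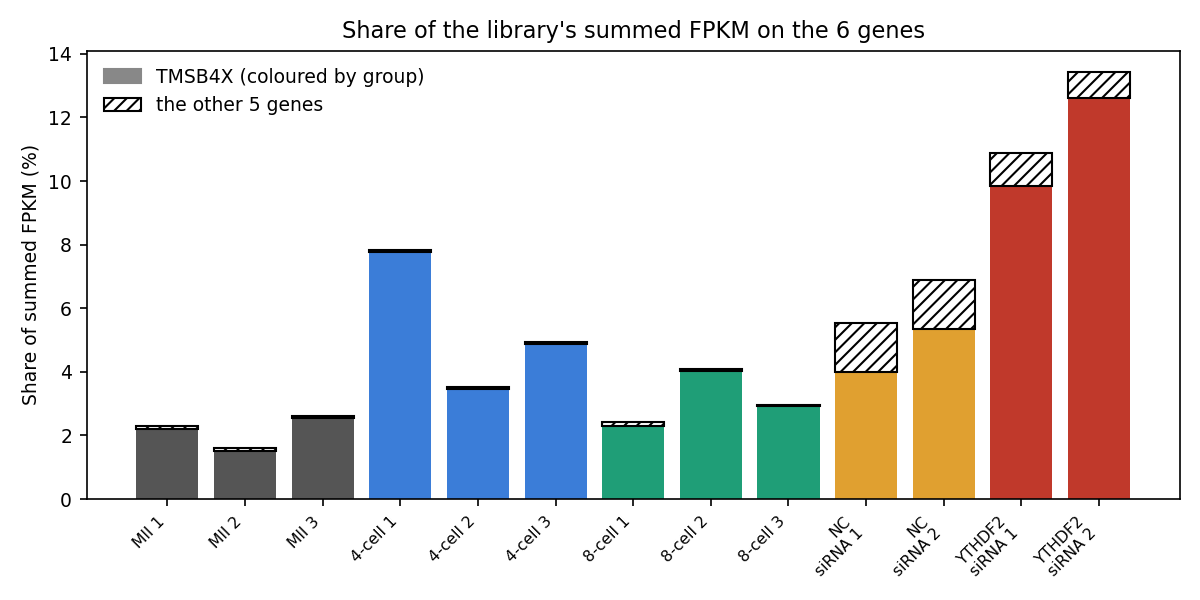
Share of each library's summed FPKM on *TMSB4X* (solid bar, coloured by group) and on the other 5 genes (hatched), in percent from 0. The hatched part is visible mainly in the injected libraries, and the bars of the *YTHDF2* siRNA libraries reach 10.9 and 13.4%.

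*TMSB10*, the other beta-thymosin measured at a level, behaved unlike *TMSB4X*. MII oocytes had 17.96, 116 and 12.4 FPKM, 4-cell stage embryos 16.4, 16.6 and 15.8 FPKM, and 8-cell stage embryos 30.9, 148 and 22.6 FPKM. The 3 4-cell libraries were close to each other, whereas MII replicate 2 and 8-cell replicate 2 stood more than 2-fold above the other libraries of their stage, as 9.69 and 3.95% of all genes did in those libraries. No difference between stages passed for *TMSB10* (adjusted p = 0.49, 0.58 and 0.31 for 4-cell against MII, 8-cell against MII and 8-cell against 4-cell, limma), with 95% intervals of -2.73 to 1.05, -1.25 to 2.53 and -0.41 to 3.37 on the log2 scale. Its sign against MII turned without MII replicate 2 at the 4-cell stage (0.12) and without 8-cell replicate 2 at the 8-cell stage (-0.17).

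In injected embryos *TMSB10* was among the highest genes. The NC siRNA libraries had 7989 and 9292 FPKM (rank 4 in both) and the *YTHDF2* siRNA libraries 5169 and 4418 FPKM (ranks 7 and 12). The knockdown libraries lay below both controls, by -0.85 on the log2 scale (SE 0.319, 95% interval -1.53 to -0.17), with adjusted p = 0.103 over 11004 genes in limma, so it did not pass. Of the alternatives run *TMSB10* passed only with a crossed replicate block, added after seeing the data (adjusted p = 0.0346, limma). Within a library, *TMSB10* was 0.348- and 0.279-fold *TMSB4X* with NC siRNA and 0.0926- and 0.0585-fold with *YTHDF2* siRNA. In untreated libraries this ratio was at most 0.0267.

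The *TMSB10* level in NC siRNA libraries was 129-fold that in untreated 8-cell stage embryos, though both are 8-cell stage and the tables were normalized apart. The NC siRNA libraries are so called from their treatment label, while their titles read WT. Of 10483 genes compared, 26 had a larger log2 difference between these groups, and the median of all genes was -0.02. By the same measure *ACTB* was 21.2-fold, *PFN1* 13.9-fold, *TMSB4X* 2.29-fold, *CFL1* 1.68-fold and *ACTG1* 0.743-fold the untreated level. Single libraries moved several of these folds by more than 1.5 times: *TMSB10* was 323-fold without 8-cell replicate 2, and *ACTB* 36.8-fold and *CFL1* 4.67-fold without 8-cell replicate 1. Without NC siRNA replicate 1 *ACTB* was 11.8-fold, *PFN1* 9.22-fold and *ACTG1* 0.385-fold, and without NC siRNA replicate 2 the direction of *ACTG1* turned (1.10-fold). Injection, study and normalization differ between these tables and cannot be told apart, and no test was made across them.

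Among the other 5 genes, 3 passed the test at the 4-cell stage against MII, 1 higher and 2 lower, where 24.7% of 9090 genes tested were higher and 6.42% lower (limma, adjusted p under 0.05). At the 8-cell stage 1 gene passed, a fall, beside 27.3% of all genes higher and 10% lower. No member passed between 4- and 8-cell stage embryos, while 3.06% of all genes were higher and 5.24% lower, and none had an unadjusted p under 0.05, as 24.3% of all genes did. The first 2 comparisons share the MII libraries. As deposited, the median gene was 0.29 higher at the 4-cell stage and 0.37 higher at the 8-cell stage than in MII on the log2 scale. The rescalings by median ratios, common sum and fragments moved these medians to 0.06, -0.17 and -0.15 for 4-cell and to 0.05, 0.04 and -0.07 for 8-cell stage embryos. All genes called in 4-cell stage embryos split as 2249 higher and 584 lower as deposited, and as 1093 and 939, 882 and 1314, or 886 and 1394 after these rescalings. In 8-cell stage embryos the split was 2486 and 912 as deposited, and 1364 and 1354, 1531 and 1584, or 1231 and 1818 after them. Between 8- and 4-cell stage embryos the median was 0.07 and the split 278 and 476 as deposited, against 0.22 and 336 and 258 with a common sum. Markers of other cell types also moved with the stages. Of 12 tested cumulus, stroma, sperm and blood cell markers 5 rose in 4-cell and 7 in 8-cell stage embryos against MII and none fell (limma), beside the shares of all genes above. The stroma marker *LUM* rose by 2.23 at both stages, also under every rescaling. *CYP19A1* at both stages and *GREM1* and *PDGFRA* at the 8-cell stage averaged under 1 FPKM in MII and passed the filter through the embryos, so their rises are a description. *HAS2* (0.91 and 1.31) and the blood cell marker *LCP2* (0.91 and 1.81) passed under every rescaling in 8-cell but under none in 4-cell stage embryos, and the sperm marker *ODF2* (1.10 and 1.26) passed after rescaling at the 8-cell stage by median ratios only. The part of these markers in the stage differences was not tested.

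*PFN1* fell after MII. The gene, whose product profilin 1 delivers actin monomers to formins and other elongation factors, stood at 43.5, 54.2 and 28.1 FPKM in MII oocytes, at 5.96, 11.6 and 5.44 FPKM in 4-cell and at 19.2, 10.6 and 9.38 FPKM in 8-cell stage embryos. The embryo libraries all lay below the MII libraries. The 4-cell mean was 5.47 times lower than the MII mean, a log2 difference of -2.33 (SE 0.363, adjusted p = 0.0016, limma), and the 8-cell mean 3.21 times lower (-1.63, SE 0.363, adjusted p = 0.00696). *PFN1* passed under every alternative run, with adjusted p of 0.000265 to 0.00952 for 4-cell and 0.000589 to 0.031 for 8-cell stage embryos. The difference of the 8-cell from the 4-cell level did not pass (0.70, 95% interval -0.11 to 1.52, adjusted p = 0.27).

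*ACTB* and *ACTG1*, which encode the beta and gamma cytoplasmic actins, moved in opposite directions at the 4-cell stage in the values as deposited. *ACTB* stood at 17.1, 12.5 and 7.18 FPKM in MII and at 3.86, 4.15 and 2.82 FPKM at the 4-cell stage, with no overlap, and at 14.0, 6.24 and 2.51 FPKM at the 8-cell stage, which spans both. *ACTG1* stood at 85.4, 99.6 and 115 FPKM in MII, at 169, 200.1 and 119 FPKM in 4-cell and at 180, 131 and 145 FPKM in 8-cell stage embryos, so that each embryo library lay above each MII library. At the 4-cell stage *ACTB* fell by 1.46 on the log2 scale (SE 0.490, adjusted p = 0.0479, limma) and *ACTG1* rose by 0.67 (SE 0.223, adjusted p = 0.0462). At the 8-cell stage neither passed (*ACTB* -0.79, adjusted p = 0.23, and *ACTG1* 0.59, adjusted p = 0.063).

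Both actin calls were close to the threshold. The call of *ACTB* was lost without MII replicate 1 (adjusted p = 0.164) or 2 (0.104), without 4-cell replicate 1 (0.103), 2 (0.0865) or 3 (0.136), without 8-cell replicate 2 (0.0571) and without the filter on low values (0.104), in a range of 0.00788 to 0.164, but it held under each rescaling, where the difference was -1.73 to -2.11. *ACTG1* lost its call under each rescaling, with a rise of 0.37, 0.14 or 0.12, and with a replicate block (adjusted p = 0.0896). It also lost it without MII replicate 1 (0.162), 2 (0.0932) or 3 (0.0589), without 4-cell replicate 1 (0.122) or 2 (0.145) and without 8-cell replicate 2 (0.0501) or 3 (0.0673), and without the filter (0.0872), in a range of 0.0209 to 0.724. At the 8-cell stage *ACTB* passed without 8-cell replicate 1 (-1.32, adjusted p = 0.0254, range 0.0254 to 0.655). *ACTG1* passed there without 4-cell replicate 3 (adjusted p = 0.0409, range 0.0409 to 0.868).

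The ratio of both actins within a library does not depend on the library total. *ACTG1* was 5.01-, 7.95- and 16.1-fold *ACTB* in MII oocytes, 43.7-, 48.2- and 42.1-fold at the 4-cell stage and 12.8-, 20.9- and 57.7-fold at the 8-cell stage. The 4-cell and MII ratios did not overlap, with a mean log2 difference of 2.37 and p = 0.1 in a two-sided exact permutation test, the smallest p that 3 against 3 allows (0.267 adjusted over 8 ratio tests). In injected embryos the order was turned or level, at 0.718- and 0.654-fold with NC siRNA and 0.396- and 1.11-fold with *YTHDF2* siRNA. The actins share nearly identical coding sequence, and beta-thymosins have similar copies elsewhere in mammalian genomes. Since only uniquely mapped reads were counted, how shared reads fell between them is uncertain.

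*CFL1*, the non-muscle cofilin, gave no call. It stood at 46.9, 53.7 and 74.6 FPKM in MII, at 24.5, 52.6 and 46.9 FPKM in 4-cell and at 307, 50.5 and 46.1 FPKM in 8-cell stage embryos. Apart from 8-cell replicate 1 the stages overlapped. The log2 difference was -0.53 for 4-cell against MII (adjusted p = 0.57), 0.64 for 8-cell against MII (adjusted p = 0.46) and 1.17 for 8-cell against 4-cell (adjusted p = 0.3), with 95% intervals of -1.97 to 0.91, -0.80 to 2.08 and -0.27 to 2.61. Without 8-cell replicate 1 the sign against MII turned (-0.24, adjusted p = 0.57). In that library *ACTB* and 20 of 81 other actin pathway genes (24.7%, beside 19.3% of all genes) were also more than 2-fold above both other 8-cell libraries. Relative to *PFN1*, *CFL1* was 0.991- to 2.65-fold in MII and 4.11- to 8.61-fold at the 4-cell stage, without overlap (log2 difference 1.94, two-sided exact permutation p = 0.1, 0.267 adjusted over 8). At the 8-cell stage it was 4.77- to 16.0-fold, also above MII (2.35, exact permutation p = 0.1, 0.267 adjusted over 8).

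**Figure D3:**
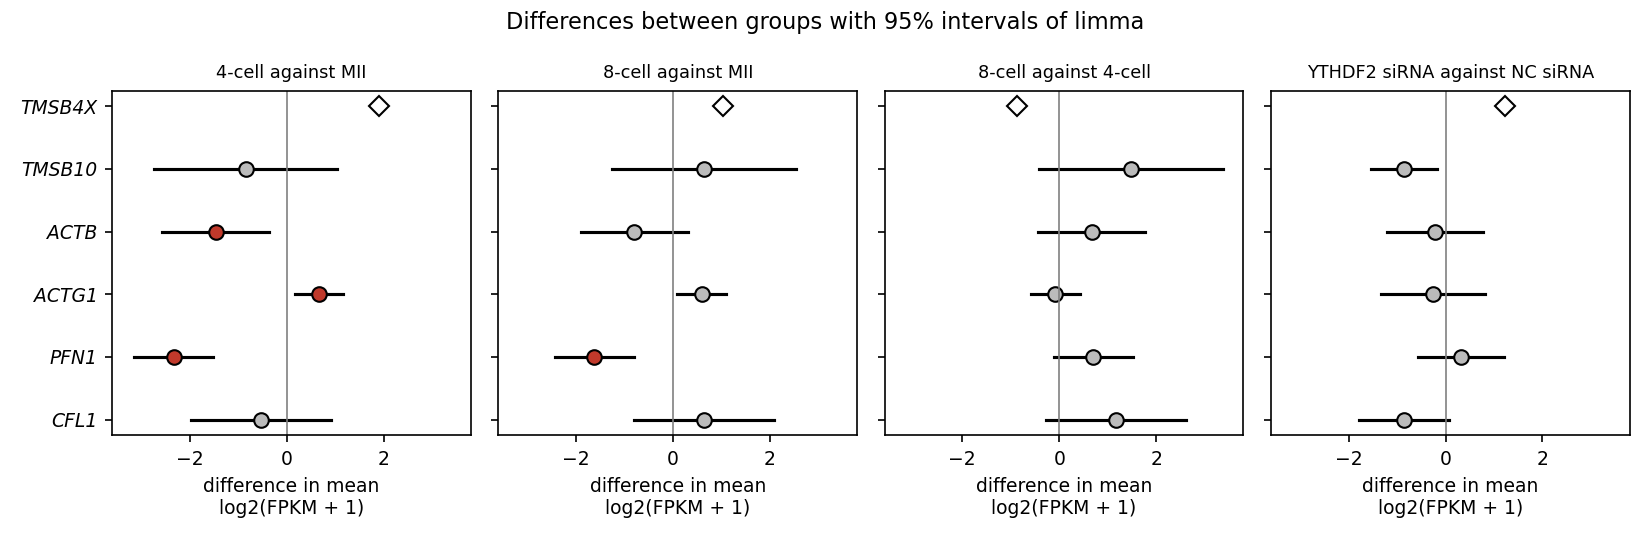
Difference in mean log2(FPKM + 1) between groups for the 6 genes, with 95% intervals from limma. Red dots passed at adjusted p under 0.05, grey dots did not, and the open diamonds of *TMSB4X* carry no test. *PFN1* lies at -2.33 and -1.63 against MII, and all 5 tested genes are grey in the knockdown.

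After knockdown of *YTHDF2* none of the 5 tested genes passed, where 2.06% of 11004 genes were higher and 5.92% lower (limma). Of the 5, 1 (*TMSB10*) had an unadjusted p under 0.05, beside 29.5% of all genes. *ACTB* stood at 232.5 and 89.3 FPKM with NC siRNA and at 148 and 104 FPKM with *YTHDF2* siRNA. *ACTG1* stood at 167 and 58.4 FPKM with NC siRNA and at 58.6 and 115 FPKM with *YTHDF2* siRNA. For both actins the controls differed more from each other than the group means did, and the log2 differences were -0.22 (95% interval -1.21 to 0.77) and -0.26 (-1.34 to 0.81), with adjusted p = 0.78 and 0.75.

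*PFN1* stood at 242 and 120.5 FPKM with NC siRNA and at 239 and 190.4 FPKM with *YTHDF2* siRNA, a log2 difference of 0.32 (95% interval -0.57 to 1.21, adjusted p = 0.63). *CFL1* stood at 253 and 198 FPKM with NC siRNA and at 186 and 81.3 FPKM with *YTHDF2* siRNA, a log2 difference of -0.86 (-1.79 to 0.07, adjusted p = 0.20). The *CFL1* knockdown libraries lay below both controls, and of the alternatives run the gene passed only without *YTHDF2* siRNA replicate 1 (-1.45, adjusted p = 0.0342, range 0.0342 to 0.814), a fit in which the lone knockdown library is assumed to vary like the controls. *CFL1* was 1.05- and 1.64-fold *PFN1* with NC siRNA and 0.776- and 0.427-fold with *YTHDF2* siRNA, without overlap, and p = 0.333 in the exact permutation test is the smallest that 2 against 2 allows.

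The paralogues of these genes did not all follow them. *PFN2*, the profilin best known from neurons, was at 26.7, 27.5 and 26.3 FPKM in MII, 57.3, 47.0 and 54.3 FPKM in 4-cell and 85.5, 80.1 and 79.8 FPKM in 8-cell stage embryos, 3 ranges without overlap. Against MII it rose by 0.95 in 4-cell (adjusted p = 0.0015, limma) and by 1.57 in 8-cell stage embryos (adjusted p = 9.27e-05). The 8-cell rise held under each rescaling (1.05 to 1.20) and the 4-cell rise did not pass under any of them (0.41 to 0.66). *PFN2* was 0.508- to 0.935-fold *PFN1* in MII, 4.05- to 9.98-fold in 4-cell and 4.45- to 8.504-fold in 8-cell stage embryos, but 0.105- to 0.221-fold in injected embryos.

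Among cofilins, *CFL2*, the muscle form, stood at 16.7, 36.3 and 12.97 FPKM in MII, at 88.7, 79.0 and 124 FPKM in 4-cell and at 69.8, 96.0 and 100.04 FPKM in 8-cell stage embryos, so that each embryo library lay above each MII library. It rose by 2.20 in 4-cell (adjusted p = 0.00171, limma) and by 2.08 in 8-cell stage embryos (adjusted p = 0.00165) and passed under every rescaling. *DSTN* (destrin), which also disassembles filaments, was the highest of its list at 117 to 305 FPKM in MII, 315 to 402 in 4-cell and 357 to 417 in 8-cell stage embryos. It rose by 1.08 and 1.21 as deposited (adjusted p = 0.029 and 0.0145), a call that no rescaling kept. *DSTN* exceeded *CFL1* in each untreated library, 1.29- to 12.8-fold, and was 0.449- and 0.393-fold *CFL1* with NC siRNA and 0.909- and 3.10-fold with *YTHDF2* siRNA. *TWF1* (twinfilin 1), which binds monomers, and *GMFB*, which undoes filament branches, followed *DSTN* in level. *TWF1* rose by 0.64 and 0.70 (adjusted p = 0.0346 and 0.0198) and passed under no rescaling, and *GMFB* rose by 1.11 and 0.57 (adjusted p = 0.00209 and 0.0361) and passed with a common sum in 4-cell stage embryos (adjusted p = 0.0473) but under no other rescaling. In the whole list of cofilin, profilin and monomer turnover genes 6 of 13 rose and none fell at each embryo stage against MII, beside 24.7 and 27.3% of all genes higher. The muscle actins were low in untreated libraries, where *ACTA2* stood at 1.72 to 2.52 FPKM in MII and at 0.725 to 1.11 FPKM in 4-cell stage embryos. Its 4-cell mean was under the filter of a mean of 1 FPKM, past which the higher libraries brought it, so its values are a description. In untreated libraries *ACTG2* stood at no more than 0.973 FPKM and *ACTA1* at no more than 0.0227 FPKM, and the thymosin *TMSB15B* did not pass the filter.

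**Figure D4:**
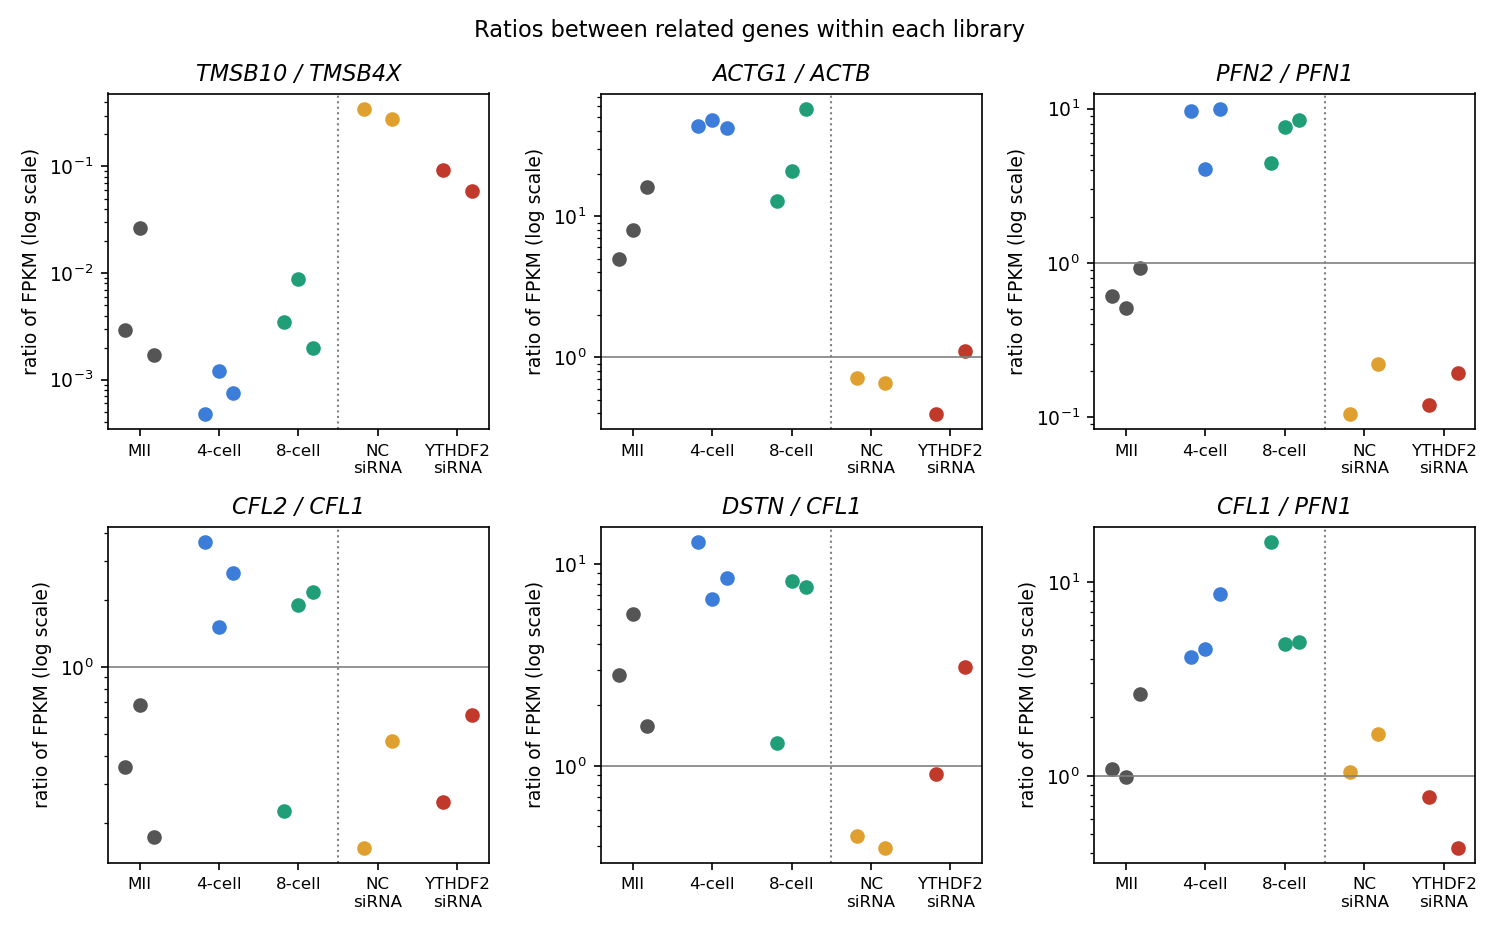
Ratio of FPKM between related genes within each library (log axes, 1 dot for each library, dotted line between tables normalized apart, grey line at 1). *ACTG1* / *ACTB* is 5.01 or more in untreated libraries and at most 1.11 in injected ones, and *PFN2* / *PFN1* goes from below 1 in MII to above 4 in untreated embryos.

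Of the other actin pathway genes, 81 from 9 lists passed the filter in the untreated libraries. At the 4-cell stage 26 rose and 5 fell against MII (32.1 and 6.17%, beside 24.7 and 6.42% of all genes). At the 8-cell stage 33 rose and 5 fell (40.7 and 6.17%, beside 27.3 and 10% of all genes, also the background of the single lists that follow), with median log2 differences of 0.44 and 0.65 beside 0.29 and 0.37 for all genes. Of these calls, 1 rise and 1 fall in 4-cell and 3 rises in 8-cell stage embryos are of genes averaging under 1 FPKM in the lower group, which the higher libraries brought past the filter. After median-ratio rescaling 8 of 78 rose and 6 fell in 4-cell stage embryos (10.3 and 7.69%, beside 12.2 and 10.4% of all genes), so that the larger share of rises was not seen there. In 8-cell stage embryos 14 rose and 8 fell (17.9 and 10.3%, beside 15.2 and 15.1%). With a common sum 9 of 96 rose and 9 fell in 4-cell (9.38 and 9.38%, beside 7.77 and 11.6%) and 19 rose and 7 fell in 8-cell stage embryos (19.8 and 7.29%, beside 13.5 and 13.9%). With the fragments as total 8 of 85 rose and 11 fell in 4-cell (9.41 and 12.9%, beside 9.35 and 14.7%) and 15 rose and 10 fell in 8-cell stage embryos (17.6 and 11.8%, beside 13 and 19.2%). Between 8- and 4-cell stage embryos 5 rose and 3 fell as deposited (6.17 and 3.7%, beside 3.06 and 5.24% of all genes), but 2 rose and 2 fell of 77 without 8-cell replicate 1 (2.6 and 2.6%, beside 2.7 and 3.95%), 3 rose and none fell after median-ratio rescaling (3.85 and 0%, beside 1.82 and 2.77%), and 5 rose and 1 fell with a common sum (5.21 and 1.04%, beside 2.96 and 2.27%).

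The Arp2/3 complex, which starts branched filaments, had 4 of 9 tested subunits higher at each embryo stage and none lower against MII. *ARPC4* rose by 2.12 and 2.49 (adjusted p = 0.00361 and 0.00122, limma) and passed under every rescaling. *ARPC2* was at 38.6 to 43.3 FPKM in MII and 83.8 to 166 FPKM at the 8-cell stage, a rise of 1.59 (adjusted p = 0.00594) that every rescaling kept (1.07 to 1.22). *ARPC5* rose by 1.26 and 1.34 (adjusted p = 0.00366 and 0.00203), not passing in 4-cell stage embryos with a common sum (adjusted p = 0.0592). *ACTR3* fell by 0.76 from the 4- to the 8-cell stage (adjusted p = 0.0249), but did not pass after median-ratio rescaling (adjusted p = 0.0884). *ACTR2*, the other actin-related subunit, stood at 22.4 to 37.9 FPKM in MII and did not pass at either stage (-0.31 and -0.50, adjusted p = 0.562 and 0.315).

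Of the factors that switch on Arp2/3, 4 of 11 rose and 1 fell at the 4-cell stage, and 7 rose and 1 fell at the 8-cell stage. *CTTN* (cortactin) fell by 1.29 and 1.48 (adjusted p = 0.0187 and 0.00815) and passed under every rescaling, and *ABI2* of the WAVE complex rose by 1.33 at the 8-cell stage (adjusted p = 0.0011), also under every rescaling. *NCKAP1* rose by 1.37 at the 4-cell stage (adjusted p = 0.00387), not passing after median-ratio rescaling (adjusted p = 0.0565). Of the other high genes of this list *ABI1* rose by 1.005 and 1.12 (adjusted p = 0.00204 and 0.000863), the first not passing with a common sum (adjusted p = 0.0947) or the fragments as total (adjusted p = 0.0679), and *WASL* by 1.31 and 1.32 (adjusted p = 0.00539 and 0.00408), the rises of *WASL* not passing after median-ratio rescaling (adjusted p = 0.0696 and 0.0753). *BRK1* rose by 0.70 from the 4- to the 8-cell stage (adjusted p = 0.0353, and 0.109 after median-ratio rescaling). Of the formins and Spire, 1 of 11 rose at the 4-cell stage (*DIAPH2*, 1.13, adjusted p = 0.0109, passing under no rescaling), and 3 rose and 1 fell at the 8-cell stage. *DAAM1*, the highest of this list at 197 to 331 FPKM in untreated libraries, did not pass (0.09 and 0.17, adjusted p = 0.778 and 0.547), and *FMNL2* (0.65, adjusted p = 0.0435) rose in 8-cell stage embryos but passed under no rescaling. *SPIRE1*, 1 of the 3 rises, averaged 0.891 FPKM in MII and 2.91 FPKM in 8-cell stage embryos and also passed under no rescaling. The embryos brought it past the filter, so its values are a description. *FMN2*, the formin known for moving the meiotic spindle, was the fall (-0.76, adjusted p = 0.036), which passed under every rescaling but not without 8-cell replicate 1 (adjusted p = 0.0767).

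Capping and severing genes had 5 of 7 higher in 4-cell and 4 of 7 higher in 8-cell stage embryos, and none lower. *TMOD3*, a cap of the slow-growing end, rose by 1.36 at the 4-cell stage (adjusted p = 0.000274) and *TMOD2* by 1.70 at the 8-cell stage (adjusted p = 0.000147), and both passed under every rescaling. *CAPZA1*, a cap of the fast-growing end and the highest of this list, did not pass (0.47 and 0.01, adjusted p = 0.227 and 0.976). Crosslinkers, tropomyosins and membrane linkers had 3 of 13 higher and 3 lower at the 4-cell stage and 4 higher and 3 lower at the 8-cell stage. *EZR* (ezrin), a link from filaments to the membrane of microvilli, fell from 36.1 to 46.2 FPKM in MII to 7.27 to 18.9 FPKM at the 4-cell stage (-1.79, adjusted p = 0.0345), also under every rescaling. *ANLN* (anillin), a scaffold of the contractile ring, rose by 1.22 at the same stage (adjusted p = 0.00539) and passed under no rescaling. In 8-cell stage embryos the tropomyosin *TPM4* rose by 1.54 (adjusted p = 0.00287), while the tropomyosins *TPM3* (-0.95, adjusted p = 0.00728) and *TPM1* (-0.88, adjusted p = 0.0309) and *MSN* (moesin, -0.95, adjusted p = 0.0279) fell against MII, each under every rescaling, though *TPM1* did not pass without 8-cell replicate 1 (adjusted p = 0.0639). *PLS1*, a filament bundler of microvilli, stood at 151 to 171 FPKM in MII, at 184 to 240.4 FPKM in 4-cell and at 113 to 135 FPKM in 8-cell stage embryos. Its fall between the embryo stages (-0.81, adjusted p = 0.0176) did not pass after median-ratio rescaling (adjusted p = 0.0887).

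**Figure D5:**
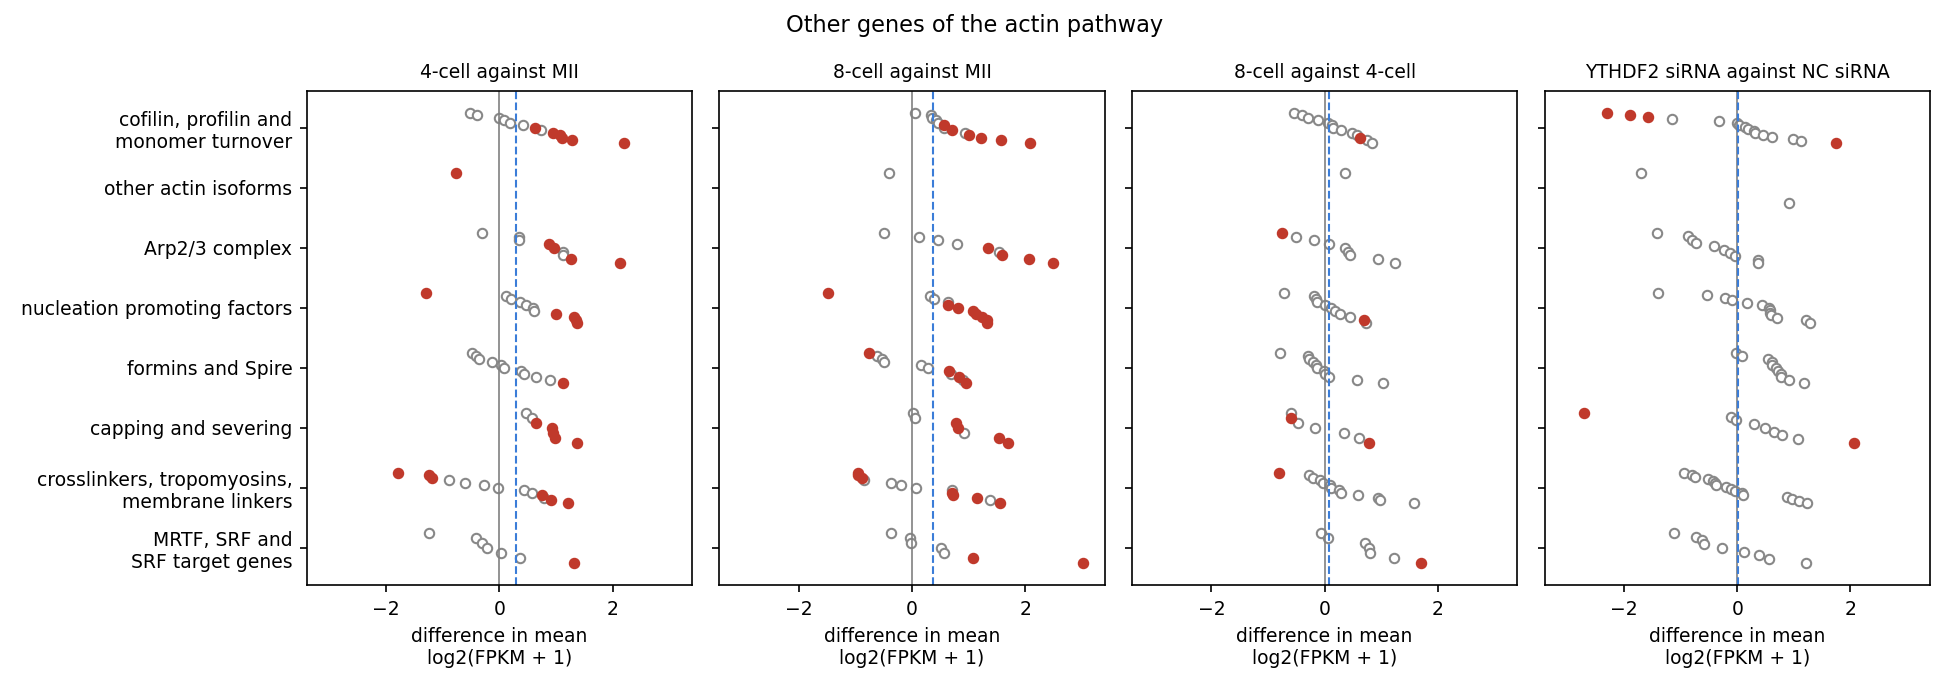
Difference in mean log2(FPKM + 1) of other actin pathway genes that passed the filter, 1 row for each of 8 lists and 1 dot for each gene, red where adjusted p was under 0.05, with the dashed line at the median of all genes. At the 4-cell stage 24 of 72 dots are red to the right and 5 to the left, and in the knockdown 2 of 86 to the right and 4 to the left.

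In the knockdown 2 of 95 pathway genes rose and 4 fell, which is 2.11 and 4.21%, beside 2.06 and 5.92% of all genes. *PFN4*, a profilin best known from testis, stood at 3.01 and 0.91 FPKM with NC siRNA and at 6.39 and 10.6 FPKM with *YTHDF2* siRNA (1.74, adjusted p = 0.0399, limma), and *TMOD1* at 11.4 and 7.56 against 33.2 and 52.7 FPKM (2.05, adjusted p = 0.0146). *CAPG*, a filament cap of phagocytes, stood at 8.89 and 13.9 FPKM with NC siRNA and at 1.05 and 0.70 FPKM with *YTHDF2* siRNA. *GMFG* stood at 2.32 and 8.91 FPKM against 0.35 FPKM and a listed 0. These 2 of the 4 falls averaged under 1 FPKM in the knockdown and passed the filter through the NC siRNA libraries, where they were high, so their values are a description. The other falls were *CAP1* (-1.89, adjusted p = 0.02) and *CORO1C* (-1.58, adjusted p = 0.0488). After median-ratio rescaling 1 of 95 rose and 2 fell (1.05 and 2.11%, beside 0.692 and 3.19% of all genes). *PFN4* (adjusted p = 0.0608) and *CORO1C* (0.0632) were among the calls lost. With a common sum 2 of 103 rose and 3 fell (1.94 and 2.91%, beside 1.42 and 4.37% of all genes). The 3 of 8 blood cell markers measured in all libraries summed to 8.46 to 12.9 FPKM with NC siRNA and to 12.7 to 20.5 FPKM with *YTHDF2* siRNA. *LCP2* stood at 5.62 and 6.16 against 12.1 and 19.9 FPKM (1.27, adjusted p = 0.0803). It was most of that sum except in NC siRNA replicate 2, where *CD74* was higher. *CD74* stood at 2.26 and 6.36 FPKM against 0.07 FPKM and a listed 0, and *TYROBP*, measured in the injected libraries, at 1.27 and 4.85 against 0.56 FPKM and a listed 0. Both passed the filter through the NC siRNA libraries and are given as a description, and *PTPRC*, the pan-leukocyte marker, was at or below 0.65 FPKM. Of other markers the sperm marker *ODF2* rose from 2.28 and 1.12 to 7.05 and 5.75 FPKM (1.48, adjusted p = 0.0497), not passing after rescaling (adjusted p = 0.0574 and 0.0603), and the stroma marker *PDGFRA* fell from 12.4 and 10.2 to 1.92 and 0.91 FPKM (-2.37, adjusted p = 0.00832). The part of these markers in the changes was not tested.

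The genes whose levels ran most like *TMSB4X* were listed by a fixed measure. Over the 9 untreated libraries, which share their stages and studies, the order by Pearson r of log2(FPKM + 1) among 3955 genes averaging 10 FPKM or more was led by *PLAGL1* (0.98) and *POMP* (0.97), and *ATG12* (0.96) and *MPHOSPH6* (0.95) were also among the 5 highest. *PLAGL1* was at 6.68 to 8.22 FPKM in MII and at 10.3 to 18.1 FPKM in embryos. Of the members, *ACTG1* had r = 0.55, *TMSB10* -0.25, *CFL1* -0.41 and *PFN1* -0.94, place 3951 of 3955. Over the 4 injected libraries the smallest summed difference from *TMSB4X* after centring the log2 values was that of *CNN3* (0.030), which encodes the actin-binding calponin 3 and stood at 140.3 and 203.7 FPKM with NC siRNA and at 338 and 464 FPKM with *YTHDF2* siRNA. *GPC4*, *LOC102178029*, *MYLIP* and *CMAS* followed.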

How the data were processed

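Reads had been aligned to the goat genome ARS1 with HISAT2, and uniquely mapped reads counted per gene with HTSeq. The deposited FPKM values, made by the authors, carry 2 decimals for the 4 injected libraries. In the 9 untreated libraries they step by whole fragments, which gave library totals, gene lengths and fragments (17916 of 17918 names above 0, tolerance 0.02 fragments). Genes averaging 1 FPKM or more were log2-transformed after adding 1 and compared with limma 3.58.1 (lmFit and eBayes, trend; R 4.3.3), untreated and injected libraries apart. P-values were Benjamini-Hochberg adjusted over all genes and called under 0.05. Folds on this scale understate changes of low genes. Ratios were compared by two-sided exact permutation. Python 3.11.15 did the rest, and the fit was tested on simulated data. The 6 genes and all lists were chosen with earlier results of these data known. Named are the 6, high or furthest-moved called genes of each list and the 5 most like *TMSB4X*, a few others being picked after their values were seen, and some named by these rules are not reported here. Same-numbered libraries were not shown to be paired. Alternatives were another pseudocount, no filter, rescaling, a block and leaving out libraries. No coordinates or gene sequences were used.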

Additional observations from a re-analysis of the deposited data

How the results depend on the processing

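Of 290 recomputed log2 differences of the 5 tested genes, 256 kept direction and side of the threshold. Members called in 4-cell stage embryos against MII went from 3 to 1 with no filter on low values and were 1 to 3 with single libraries left out, which gave 1 to 2 for 8-cell against MII and 0 to 1 for the knockdown. Same-numbered untreated libraries deviated from their group means with correlations of -0.51 to 0.20 and were not treated as paired. A replicate block gave 2337 calls for 4-cell against MII, 2944 for 8-cell against MII, 311 for 8-cell against 4-cell and 461 in the knockdown, with 2, 1, 0 and 0 members. The 2 injected pairs deviated apart (-0.15), and a crossed replicate block, added after seeing the data, gave 2107 calls and 1 member, *TMSB10*.

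Of all genes, 754 were called for 8-cell against 4-cell and this went to 413 after median-ratio rescaling, 283 with these stages alone, and, leaving out MII replicate 1, 4-cell replicate 1, 2 or 3, or 8-cell replicate 3, to 386, 238, 494, 241 or 333. For 4-cell against MII, 2833 became 1820 without MII replicate 1. The 878 calls of the knockdown became 0 with no filter, 427 after median-ratio rescaling, 423 and 488 without NC siRNA replicate 1 and 2, 1617 and 303 without *YTHDF2* siRNA replicate 1 and 2, and 2728 by unadjusted p and a 2-fold difference. Where 1 of 2 injected libraries was left out, the lone one was assumed to vary like the other group.

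The share of the 6 genes by recovered fragments was 0.400, 1.46 and 0.807% for MII, 4-cell and 8-cell stage libraries. With single libraries left out, signs turned in the knockdown for *ACTB* (-0.90 to 0.47, with 0.035 without *YTHDF2* siRNA replicate 2), *ACTG1* (-1.01 to 0.48, with 0.22 without *YTHDF2* siRNA replicate 1) and *PFN1* (-0.18 to 0.82). They also turned for *TMSB10* in 4-cell (-1.45 to 0.12) and 8-cell stage embryos (-0.17 to 1.60) against MII, for *CFL1* in 8-cell stage embryos against MII (-0.24 to 1.11) and for *ACTG1* between embryo stages (-0.29 to 0.086, with 0.021 without 8-cell replicate 2), the last also with a common sum (0.044). The log2 ratio of *ACTG1* to *ACTB* in the knockdown was -0.79 to 0.70 with single libraries left out, and that of *CFL1* to *PFN1* between embryo stages -0.17 to 0.74. The log2 difference of *ACTG1* in NC siRNA from untreated 8-cell libraries was -1.35 to 0.15 with single libraries left out, chosen after seeing the data. The cause of these changes was not tested. Depth is unknown for the injected libraries.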

Other observations

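*ACTB* is often used as a reference gene for qPCR, and 9 of 11 listed reference genes were measured. Against MII, 4 rose and 2 fell at the 4-cell stage and 5 rose and none fell at the 8-cell stage (limma, adjusted p under 0.05), beside 24.7% of all genes higher and 6.42% lower, and 27.3% higher and 10% lower. *GAPDH*, an enzyme of glycolysis, stood at 17.1, 36.7 and 40.4 FPKM in MII, 59.9, 113 and 93.4 FPKM in 4-cell and 211, 84.5 and 85.4 FPKM in 8-cell stage embryos, and rose by 1.51 and 1.93 (adjusted p = 0.0261 and 0.00714), the 8-cell rise under every rescaling and the 4-cell rise not with a common sum (adjusted p = 0.143) or the fragments as total (adjusted p = 0.131). Among the highest of the list were *HPRT1*, which rose by 0.82 in 4-cell stage embryos (adjusted p = 0.0273), *RPLP0*, which fell by 0.54 there (adjusted p = 0.0454) and rose by 0.59 in 8-cell stage embryos (adjusted p = 0.0261), and *PPIA*. The calls of *HPRT1* and *RPLP0* were not followed under the rescalings. *PPIA*, at 96.0 to 205.5 FPKM in untreated libraries, passed at neither stage (0.30 and 0.10). In the knockdown 1 of 9 fell (*B2M*, -1.49, adjusted p = 0.0472) and none rose, beside 5.92 and 2.06% of all genes, and after median-ratio rescaling *B2M* did not pass (adjusted p = 0.0872).

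Of 7 tested genes of MRTF, SRF and SRF targets, 1 rose in 4-cell and 2 in 8-cell stage embryos against MII (limma), shares below and near the 24.7 and 27.3% of all genes, and all of them (*CTGF* at both stages and *MKL2* in 8-cell stage embryos) had an MII mean under the filter of 1 FPKM. *CTGF*, listed among SRF targets, averaged 0.388 FPKM in MII, 2.48 FPKM in 4-cell and 10.3 FPKM in 8-cell stage embryos, a description since embryos alone brought it past the filter, and it rose by 1.71 between the embryo stages (adjusted p = 0.00359). *VCL* (vinculin) stood at 103 FPKM in 8-cell replicate 1 and at 13.2 to 34.7 FPKM in the other untreated libraries and did not pass, nor did *CNN3* (-0.42 and -0.37, adjusted p = 0.538 and 0.573), whose level in 8-cell replicate 1, 345 FPKM, was also the highest. *FOS*, an early response gene, was at or below 2.17 FPKM in untreated libraries and at 46.9 and 120 FPKM with NC siRNA and 36.3 and 32.1 FPKM with *YTHDF2* siRNA. In the knockdown 0 of 9 tested genes of this list passed in limma, beside 2.06% of all genes higher and 5.92% lower, and 2 had an unadjusted p under 0.05, beside 29.5%.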
